A study of Homo sapiens with 9 samples.

Results

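The 10 genes described here, GP1BA, GP1BB, GP9, GP5, GP6, ITGA2, ITGA2B, ITGB3, PECAM1 and CD226, encode glycoproteins of the platelet surface. They were selected by gene symbol from a table of 60662 genes, in which each symbol matched a single entry, and their RNA level and change were read in each clone. RNA was sequenced in bulk from SET2 cells, a megakaryoblastic leukemia line with mutant JAK2 that the labels class as acute myeloid leukemia following a myeloproliferative neoplasm. The groups were wild-type SET2 cells (WT, n = 3 libraries), DYRK1A KO clone 11H1 (n = 3) and DYRK1A KO clone 14B5 (n = 3), all without treatment. The kinase gene DYRK1A was cut in SET2 cells with a Cas9 ribonucleoprotein, and per the study's methods each clone was the progeny of a sorted cell and held only out-of-frame indels. The libraries of a clone thus share a founder cell, an unedited clone was not analysed here, and DYRK1A loss and the choice of founder cell cannot be told apart within a clone. Nothing in the labels says that libraries of a group came from separate cultures, so the p values measure the spread between these libraries, which may be technical.

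Megakaryocytes make the platelet receptors while they mature and pass them on to the platelets they release. The GPIb-IX-V complex, built from the products of GP1BA, GP1BB, GP9 and GP5, holds platelets to von Willebrand factor under flow, and inherited loss of its GPIb or GPIX chains causes Bernard-Soulier syndrome. GPVI and integrin α2 bind collagen, and integrin αIIb (ITGA2B) with integrin β3 (ITGB3) forms the fibrinogen receptor, whose inherited loss is Glanzmann thrombasthenia. PECAM1 is an inhibitory adhesion receptor of platelets, leukocytes and endothelium, and CD226 is an adhesion receptor of platelets, T cells and NK cells. Factors of the GATA and ETS families are known to act near the start sites of many megakaryocyte genes.

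The sequences just upstream of GP5, GP6, GP9 and ITGA2B are shown because these members cover the span of the changes described, from the largest fall (GP9) to no call (GP5), and because no annotated exon lies in the stretch printed. Each is the gene's own strand, 5′ to 3′, from RefSeq on GRCh38.p14, and capitals mark the GATA core (GATAA, or TTATC on the other strand) and the ETS core (GGAAG, or CTTCC on the other strand). GP5 lies at chr3:194399267-194399516 on the minus strand, GP6 at chr19:55038265-55038514 on the minus strand, GP9 at chr3:129060529-129060766 on the plus strand and ITGA2B at chr17:44389650-44389899 on the minus strand. Each window was cut at the RefSeq start, and the last 12 of the 250 bases were left off for GP9, where a GENCODE v29 exon begins. Against the GENCODE v29 gene models the windows of GP6 and GP9 abut the gene, whereas those of GP5 and ITGA2B end 912 and 144 bases upstream of it.
GP5: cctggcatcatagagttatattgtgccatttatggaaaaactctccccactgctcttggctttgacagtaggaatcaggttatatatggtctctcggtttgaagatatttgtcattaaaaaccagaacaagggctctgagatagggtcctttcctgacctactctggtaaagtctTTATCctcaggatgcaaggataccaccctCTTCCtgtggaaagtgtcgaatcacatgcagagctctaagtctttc
GP6: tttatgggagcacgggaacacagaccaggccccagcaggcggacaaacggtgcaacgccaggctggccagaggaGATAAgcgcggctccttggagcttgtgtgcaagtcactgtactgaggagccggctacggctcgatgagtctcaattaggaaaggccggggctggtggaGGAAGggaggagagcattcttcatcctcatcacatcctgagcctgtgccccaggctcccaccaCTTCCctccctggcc
GP9: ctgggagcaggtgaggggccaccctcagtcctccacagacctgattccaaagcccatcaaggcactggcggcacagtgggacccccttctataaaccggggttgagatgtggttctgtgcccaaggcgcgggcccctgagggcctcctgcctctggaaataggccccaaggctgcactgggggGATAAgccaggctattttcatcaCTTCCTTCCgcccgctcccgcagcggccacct
ITGA2B: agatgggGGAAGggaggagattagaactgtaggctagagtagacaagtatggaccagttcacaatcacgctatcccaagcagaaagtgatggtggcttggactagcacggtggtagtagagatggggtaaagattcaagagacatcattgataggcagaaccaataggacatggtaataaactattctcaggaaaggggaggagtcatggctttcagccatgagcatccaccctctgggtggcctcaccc
Counted from the first base of the match to the end of the printed window, GP9 held a GATA core at 55 bases and ETS cores at 32 and 28 bases, which share 1 base. The GP5 window held a GATA core at 75 bases and an ETS core at 46 bases. GP6 had a GATA core at 176 bases and ETS cores at 78 and 15 bases, whereas the ITGA2B window had an ETS core at 243 bases and no GATAA or TTATC. Other GATA letters were not searched for, and GATAG occurs unmarked in the printed windows of GP5 and ITGA2B. Over the 250 bases upstream, RefSeq windows were found for 7 of the 10 members, of which 5 held the GATA core, 6 the ETS core and 5 both in the same window. CD226 had 2 windows and counted if either matched. By window, 5 of the 8 windows of these members held the GATA core and 7 the ETS core. Of all 35116 windows of that length, 20.4% held the GATA core, 65.1% the ETS core and 12.1% both. A match is a run of letters and not evidence of binding, and a relation between these cores and the changes in RNA was not tested. RefSeq windows for GP1BA, ITGB3 and PECAM1 were not used here.

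The deposited values were expected counts, and the library totals ran from 32347779 to 60272245 counts. Levels are given as CPM (counts scaled to a common library total) after trimmed mean of M values (TMM) scaling, and libraries are named 1 to 3 within a group as labelled. Pairs of libraries of a group differed by 3.83 to 32.9 times the sampling noise, so no library was a copy of another. DYRK1A RNA stood at 197, 196 and 219 CPM in WT, 188, 191 and 192 CPM in 11H1, and 191, 182 and 174 CPM in 14B5. The difference from WT was small, with a log2FC of −0.09 (edgeR adjusted p = 0.131) in 11H1 and −0.17 (edgeR adjusted p = 0.0278) in 14B5. Out-of-frame indels need not lower the RNA, and these levels do not check the labels of the clones. Mitochondrial genes took 7.23% to 7.39% of counts in 11H1, 3.54% to 6.03% in WT and 3.30% to 3.92% in 14B5, and the part of this in the results was not tested.

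The question of the main comparisons was which of the 10 RNAs differ between each DYRK1A KO clone and WT. Most were lower in each clone and none was called higher, a call that 31.8% of all genes had in 11H1 and 24.9% in 14B5. In 11H1, 8 of the 10 fell and 2 (GP1BB and GP5) did not pass the test, against 64.6% of 16675 genes called in either direction and 32.8% called lower (edgeR quasi-likelihood test, Benjamini-Hochberg adjusted p under 0.05). In 14B5, 9 of the 10 fell and GP5 did not pass, against 53.5% of 16537 genes called and 28.7% called lower. The median log2FC of the 10 genes was −0.91 in 11H1 and −2.21 in 14B5, where the median over all genes tested was −0.01 in each comparison. In each of these comparisons the 3 libraries of the clone lay below all 3 WT libraries for 8 members, which held for 35.3% of all genes in 11H1 and 31.1% in 14B5. Falls of more than 1 on the log2 scale with an edgeR adjusted p under 0.05 were seen for GP6, GP9, ITGB3 and CD226 in 11H1. In 14B5 they were seen for these and GP1BA, ITGA2 and PECAM1. Of all genes, 8.53% in 11H1 and 10.9% in 14B5 fell as far by the same rule. GP1BB had a log2FC of −1.003 in 11H1 but did not pass the test. Because both comparisons use the same WT libraries they are not independent of each other. In bulk RNA, fewer cells that carry a transcript and less of it per cell cannot be told apart.

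**Figure D1:**
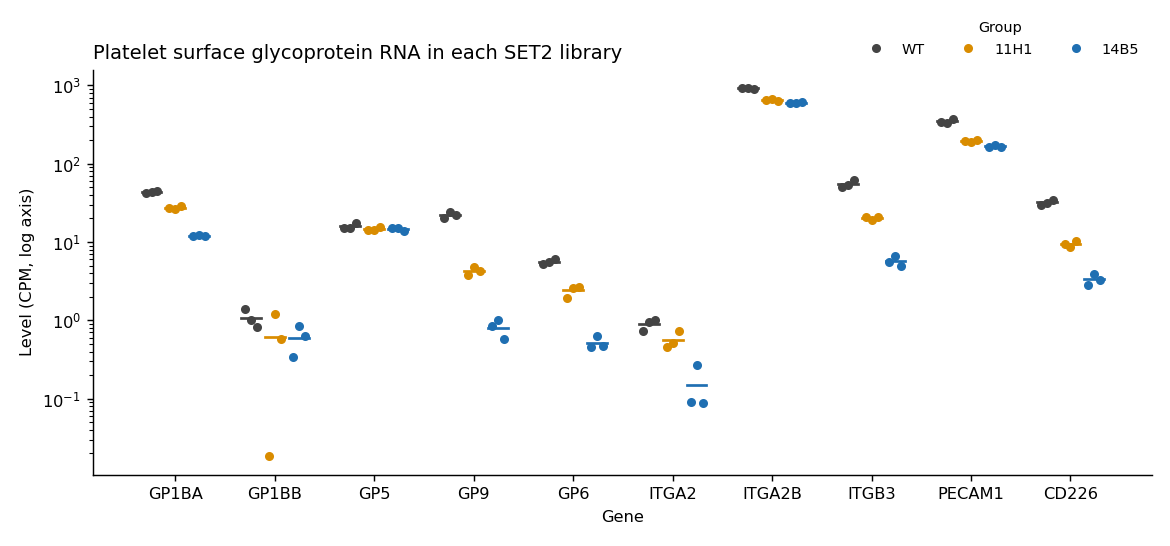
RNA level of each glycoprotein gene (y axis, CPM on a log axis) in the 9 SET2 libraries, with 1 point per library, a line at the group mean and n = 3 libraries per group. GP9 goes from 20.2 to 24.5 CPM in WT to 0.574 to 1.004 CPM in 14B5, the GP5 groups overlap, and 1 of the 11H1 libraries stands far below the others for GP1BB.

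**Figure D2:**
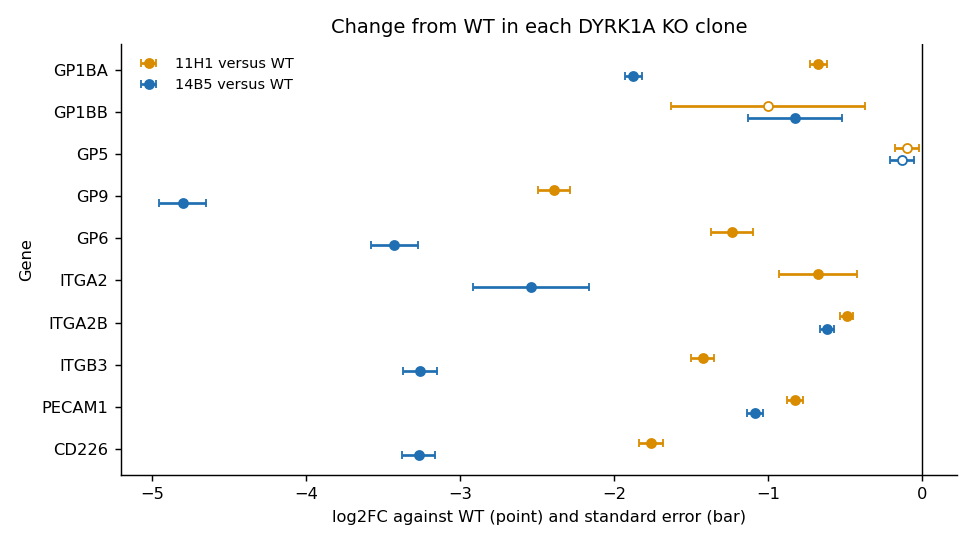
Log2FC against WT (x axis) for each glycoprotein gene in clone 11H1 and clone 14B5, with the standard error from the edgeR fit as a bar, n = 3 libraries against 3, and open points where the adjusted p was 0.05 or more. GP9 lies farthest left in both clones (−2.39 and −4.80), and GP5 lies nearest to 0.

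The clones also differed from each other. With 11H1 set against 14B5, 8 members were higher in 11H1, none was lower, and GP1BB and GP5 did not pass the test, beside 63.7% of 16352 genes called, 31.6% higher and 32.1% lower. The median log2FC was 1.34, and 8 members had every 11H1 library above every 14B5 library, as did 33.6% of all genes. The order WT, then 11H1, then 14B5, with no overlap between libraries of neighbouring groups, held for 8 of the 10 members and for 982 of 17080 genes (5.75%).

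Within the GPIb-IX-V complex, GP1BA and GP9 fell in each clone, GP5 passed the test in neither, and GP1BB was near its limit. GP1BA (ENSG00000185245.8, chr17:4932297-4935030, plus strand, coordinates of all genes from GENCODE v29 on GRCh38) encodes GPIbα, the chain that binds von Willebrand factor. It stood at 42.5, 44.2 and 44.7 CPM in WT, 27.1, 26.0 and 28.8 CPM in 11H1, and 11.9, 12.5 and 11.8 CPM in 14B5. The groups did not overlap, and the libraries of each lay close together. GP1BA fell by 0.67 on the log2 scale in 11H1 (SE 0.0538, edgeR adjusted p = 5.48e-07) and fell by 1.88 in 14B5 (SE 0.0524, edgeR adjusted p = 3.32e-09), which left 62.3% and 27.5% of the WT mean. The level in 11H1 exceeded that in 14B5 by 1.18 (SE 0.0587, edgeR adjusted p = 2.17e-08). Its exons overlap those of CHRNE on the opposite strand over 97 bases.

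GP9 (ENSG00000169704.4, chr3:129060767-129062406, plus strand) encodes GPIX, a small chain that the complex needs to reach the surface, and its upstream sequence is among those above. Its level was 20.2, 24.5 and 22.0 CPM in WT, 3.76, 4.81 and 4.23 CPM in 11H1, and 0.835, 1.004 and 0.574 CPM in 14B5. No other member changed as much in either clone. The log2FC was −2.39 (SE 0.103, edgeR adjusted p = 3.36e-09), or 5.24-fold lower, in 11H1 and −4.80 (SE 0.153, edgeR adjusted p = 7.42e-09), or 27.9-fold lower, in 14B5. The 14B5 libraries still held 33 to 60 counts each, so the transcript was detected there. GP9 was 2.40 higher in 11H1 than in 14B5 on the log2 scale (SE 0.200, edgeR adjusted p = 9.64e-07).

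GP5 (ENSG00000178732.5, chr3:194394821-194398354, minus strand) encodes GPV, the chain that is cut from the platelet surface by thrombin. GP5 stood at 14.99, 14.95 and 17.7 CPM in WT, 14.3, 14.3 and 15.6 CPM in 11H1, and 15.1, 14.97 and 13.9 CPM in 14B5, and the 3 groups overlapped. The log2FC was −0.10 in 11H1 (95% interval −0.28 to 0.08, edgeR adjusted p = 0.293) and −0.13 in 14B5 (95% interval −0.31 to 0.05, edgeR adjusted p = 0.189). Between the clones it was 0.02 (95% interval −0.12 to 0.16, edgeR adjusted p = 0.851). GP5 had 470 to 895 counts per library, and the lower bounds of its intervals lie above the log2FC of GP1BA in the same clone.

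GP1BB (ENSG00000203618.5, chr22:19722945-19724771, plus strand) encodes GPIbβ, which is bound to GPIbα by disulfide bonds. Its RNA was low and uneven, at 1.38, 1.01 and 0.826 CPM in WT, 0.0183, 1.22 and 0.578 CPM in 11H1, and 0.339, 0.836 and 0.627 CPM in 14B5. All of its 1553 exonic bases also belong to a readthrough transcript with its upstream neighbour SEPT5, and 1006 of them to SEPT5 itself, so reads must be divided by estimation and its counts (1.14 to 67.72) were not whole numbers. GP1BB had a log2FC of −1.003 (95% interval −2.38 to 0.37, edgeR adjusted p = 0.18) in 11H1 and −0.83 (SE 0.307, edgeR adjusted p = 0.0439) in 14B5, where the libraries overlapped those of WT. Between the clones the log2FC was −0.14 (95% interval −1.67 to 1.38, edgeR adjusted p = 0.871). Without 11H1 replicate 1, the library at 0.0183 CPM, the log2FC in 11H1 was −0.26 (edgeR adjusted p = 0.533), and without 11H1 replicate 2 it was −2.13 (edgeR adjusted p = 0.0158). The call in 14B5 was lost in 6 of 14 alternative fits, with an adjusted p of up to 0.284.

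With GP1BB, SEPT5 and the readthrough added together, a sum chosen after the values were seen, the locus stood at 5.19, 5.35 and 4.11 CPM in WT, 3.50, 4.17 and 3.41 CPM in 11H1, and 3.41, 3.50 and 3.34 CPM in 14B5. The locus as a whole was steadier within groups than GP1BB alone. Its log2FC was −0.40 in 11H1 (edgeR adjusted p = 0.0169) and −0.53 in 14B5 (edgeR adjusted p = 0.0041), though 1 of the 11H1 libraries lay above the lowest WT library. How much of this sum is GP1BB itself cannot be told from the counts.

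Since each chain of the complex is needed in a fixed proportion, the ratio of subunit RNAs was taken within each library, per kb of exon, where it does not depend on library scaling. GP9 RNA was 134%, 156% and 139% of GP1BA RNA in WT, 39.1%, 52.0% and 41.3% in 11H1, and 19.8%, 22.6% and 13.7% in 14B5. The ratio thus passed from above 100% to a minority share, with no overlap between groups. GP5 RNA was 24.99%, 23.96% and 28.0% of GP1BA RNA in WT, 37.4%, 38.9% and 38.5% in 11H1, and 89.9%, 84.9% and 83.3% in 14B5, the opposite order. On the log2 scale the GP9 to GP1BA ratio differed from WT by −1.70 in 11H1 and −2.96 in 14B5, and the GP5 to GP1BA ratio by 0.58 and 1.75. Each of these gave p = 0.1 in a 2-sided exact permutation test, the smallest value that 3 libraries against 3 allow, and 0.133 after Benjamini-Hochberg adjustment over the 12 ratio comparisons. GP1BB RNA was 3.00% to 5.23% of GP1BA RNA in WT, 0.124% to 7.47% in 11H1 and 4.55% to 10.9% in 14B5, ranges that overlap, with exact permutation p values of 0.8 for 11H1 and 0.2 for 14B5 against WT.

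Both collagen receptor genes fell in each clone, and by more in 14B5. GP6 (ENSG00000088053.11, chr19:55013705-55038264, minus strand) encodes GPVI, the main signalling receptor for collagen on platelets. It was measured at 5.23, 5.56 and 6.03 CPM in WT, 1.93, 2.62 and 2.68 CPM in 11H1, and 0.452, 0.636 and 0.470 CPM in 14B5. The 3 groups lay apart, and the 14B5 libraries held 20 to 38 counts each. GP6 fell by 1.24 on the log2 scale in 11H1 (SE 0.136, edgeR adjusted p = 7.89e-06) and fell by 3.43 in 14B5 (SE 0.154, edgeR adjusted p = 6.32e-08). The clones differed by 2.19 (SE 0.216, edgeR adjusted p = 3.81e-06), with 11H1 the higher. GP6 exons overlap those of a noncoding gene on the same strand over 270 bases. FCER1G, the Fc receptor γ chain through which GPVI signals, was looked up after the values were seen and had a log2FC of −0.10 (edgeR adjusted p = 0.217) in 11H1 and −0.20 (edgeR adjusted p = 0.0197) in 14B5.

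ITGA2 (ENSG00000164171.11, chr5:52989326-53094779, plus strand) encodes integrin α2, which pairs with integrin β1 to hold platelets on collagen. By group mean it was the lowest member per kb in each group, though in 11H1 its libraries overlapped those of GP1BB. ITGA2 stood at 0.732, 0.944 and 1.02 CPM in WT, 0.459, 0.518 and 0.730 CPM in 11H1, and 0.0903, 0.268 and 0.0870 CPM in 14B5. The highest 11H1 library lay just below the lowest WT library, and the 14B5 libraries held 4 to 16 counts each. ITGA2 had a log2FC of −0.68 in 11H1 (SE 0.252, edgeR adjusted p = 0.0329) and −2.54 in 14B5 (SE 0.375, edgeR adjusted p = 0.000281). The call in 11H1 was lost in 6 of 14 alternative fits, with adjusted p values of up to 0.147 and a log2FC of −0.52 without 11H1 replicate 1. Between the clones it differed by 1.86 (SE 0.419, edgeR adjusted p = 0.00208). Its partner ITGB1, also looked up after the values were seen, stood at means of 336 CPM in WT, 323 CPM in 11H1 and 418 CPM in 14B5, with a log2FC of −0.05 (edgeR adjusted p = 0.394) and 0.30 (edgeR adjusted p = 0.00142) against WT.

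Both chains of the fibrinogen receptor fell in each clone, ITGB3 by far more than ITGA2B. ITGA2B (ENSG00000005961.18, chr17:44372180-44389505, minus strand) encodes integrin αIIb, also known as CD41, an early marker of the megakaryocyte lineage. It was the most abundant member, at 927, 921 and 911 CPM in WT, 650, 665 and 638 CPM in 11H1, and 600, 593 and 621 CPM in 14B5. The libraries of each group agreed closely and both clones lay well below WT. ITGA2B fell by 0.49 on the log2 scale in 11H1 (SE 0.0437, edgeR adjusted p = 1.35e-06) and fell by 0.62 in 14B5 (SE 0.0445, edgeR adjusted p = 1.72e-06), among the smaller changes of the 10 genes. The clones differed by 0.11 (SE 0.0395, edgeR adjusted p = 0.025), a call that 6 of 14 alternative fits lost, with an adjusted p of up to 0.166.

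ITGB3 (ENSG00000259207.7, chr17:47253846-47311816, plus strand) encodes integrin β3, also known as CD61, the partner of αIIb. In contrast to ITGA2B, it stood at 49.8, 53.6 and 61.2 CPM in WT, 20.6, 19.3 and 21.0 CPM in 11H1, and 5.60, 6.71 and 5.01 CPM in 14B5. The 3 groups lay far apart. Its log2FC was −1.42 (SE 0.0747, edgeR adjusted p = 1.67e-08) in 11H1 and −3.26 (SE 0.109, edgeR adjusted p = 9.84e-09), or 9.58-fold lower, in 14B5, and 11H1 exceeded 14B5 by 1.82 (SE 0.0943, edgeR adjusted p = 2.99e-08). A predicted gene shares 2266 exonic bases with ITGB3 on the same strand, and it had 0 counts in every library. ITGAV, which encodes the other α chain that pairs with β3, was looked up after the values were seen and had a log2FC of −0.09 (edgeR adjusted p = 0.269) in 11H1 and −0.21 (edgeR adjusted p = 0.0621) in 14B5.

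The partners of the fibrinogen receptor therefore did not fall by the same factor. ITGB3 RNA was 6.78%, 7.36% and 8.49% of ITGA2B RNA per kb in WT, 4.002%, 3.66% and 4.17% in 11H1, and 1.18%, 1.43% and 1.02% in 14B5. On the log2 scale the ratio differed from WT by −0.93 in 11H1 and −2.65 in 14B5, and between the clones by 1.72. All 3 differences had non-overlapping groups and the smallest exact permutation p the design allows (p = 0.1, adjusted 0.133).

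**Figure D3:**
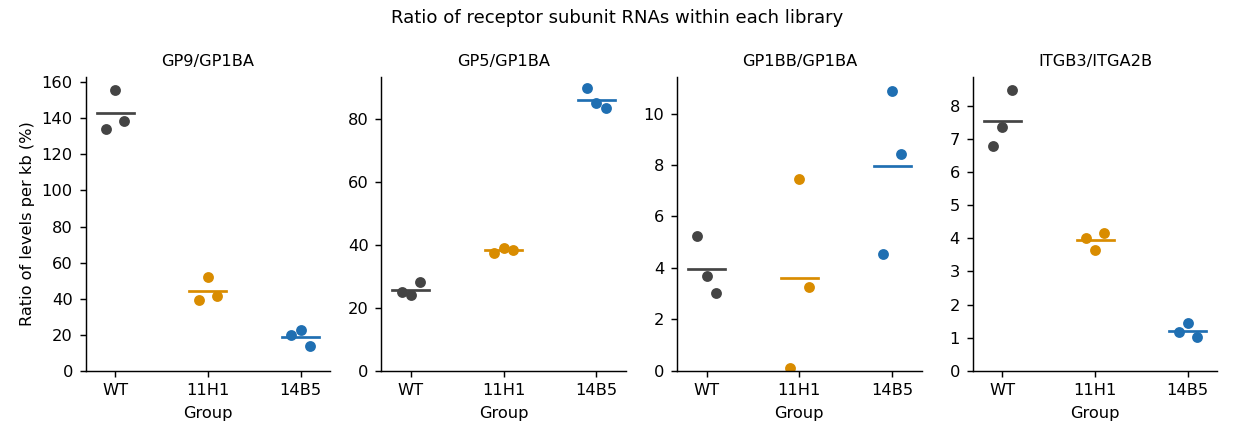
Ratio of the RNA level of one receptor subunit to that of its partner (y axes, percent, levels per kb of exon, each axis from 0) in each library, with a line at the group mean and n = 3 libraries per group. GP9 and ITGB3 fall against their partners in the order WT, 11H1, 14B5, GP5 rises against GP1BA from 23.96% to 28.0% in WT to 83.3% to 89.9% in 14B5, and the GP1BB ratio overlaps between groups.

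PECAM1 and CD226, which belong to no shared complex, also fell in each clone. PECAM1 (ENSG00000261371.6, chr17:64319415-64413776, minus strand) encodes CD31, whose inhibitory motifs dampen platelet activation. It stood at 340, 335 and 372 CPM in WT, 196, 189 and 203 CPM in 11H1, and 161, 172 and 165 CPM in 14B5. All 3 groups lay apart, with the clones near to each other. PECAM1 fell by 0.82 on the log2 scale in 11H1 (SE 0.0523, edgeR adjusted p = 8.16e-08) and fell by 1.09 in 14B5 (SE 0.0536, edgeR adjusted p = 1.17e-07). The clones differed by 0.25 (SE 0.0449, edgeR adjusted p = 0.00047). Of 7 endothelial markers, a lineage that also carries PECAM1, 5 were tested and all 5 were lower in each clone. Of all genes, 32.8% were called lower in 11H1 and 28.7% in 14B5. The median log2FC of the 5 was −0.85 in 11H1 and −5.19 in 14B5. The latter is the value of ROBO4, which averaged 0.977 CPM in WT and 0.0228 CPM in 14B5. CDH5 and KDR were also near 0 in 14B5 (0.131 and 0.0395 CPM), while TIE1 and EGFL7 had a log2FC of −1.16 and −0.84 there. The summed level was 317 to 357 CPM in WT, 202 to 208 CPM in 11H1 and 154 to 161 CPM in 14B5. TIE1 and EGFL7 made up most of that sum, TEK was at 0 in every library and CLDN5 never passed 1 count, and the part of these markers in the PECAM1 result was not tested.

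CD226 (ENSG00000150637.9, chr18:69831158-69961803, minus strand) encodes DNAM-1, the receptor for PVR and NECTIN2. It was measured at 30.0, 31.96 and 34.4 CPM in WT, 9.34, 8.56 and 10.4 CPM in 11H1, and 2.80, 3.96 and 3.24 CPM in 14B5. Its groups were among the most widely separated. The log2FC was −1.76 (SE 0.0792, edgeR adjusted p = 5.03e-09) in 11H1 and −3.27 (SE 0.108, edgeR adjusted p = 9.35e-09), or 9.64-fold lower, in 14B5, and the clones differed by 1.497 (SE 0.126, edgeR adjusted p = 1.06e-06). CD226 is also a marker of T and NK cells, of whose 8 markers 4 were tested in each clone, with 2 lower and 1 higher in 11H1 and 2 lower in 14B5. Among all genes tested, 32.8% were lower and 31.8% higher in 11H1, and 28.7% were lower and 24.9% higher in 14B5. The summed level of the 8 was 97.0 to 107 CPM in WT, 65.6 to 76.3 CPM in 11H1 and 96.4 to 109 CPM in 14B5, most of it from CD7 and NKG7, while KLRD1 never passed 1 count and CD3G never passed 5 counts. In 14B5 the called markers were CD3D (log2FC −1.28) and CD2 (−1.73), and CD7 (0.03) and NKG7 (−0.00095) did not pass the test. The part of these markers in the CD226 result was not tested.

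Levels were also compared between the genes, per kb of exon. In WT the order was ITGA2B (166 CPM per kb), PECAM1 (45.0), GP9 (25.02), GP1BA (17.5), ITGB3 (12.5), GP5 (4.50), CD226 (2.35), GP6 (2.07), GP1BB (0.690) and ITGA2 (0.114), all as group means. Only CD226 and GP6 overlapped among neighbours in that order. In 11H1, GP9 had dropped below GP1BA to 4.80 CPM per kb, next to ITGB3 (4.62) and GP5 (4.17), and both of these neighbouring pairs overlapped. At the low end of the order in 11H1, GP6 and CD226, CD226 and GP1BB, and GP1BB and ITGA2 overlapped too. In 14B5, ITGA2B (109 CPM per kb) and PECAM1 (21.4) still led, GP5 (4.15) stood just below GP1BA (4.82) without overlap, and ITGB3 (1.31) and GP9 (0.905) had fallen behind both. GP1BB and CD226, and CD226 and GP6, overlapped at the low end of the order in 14B5.

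The change of each member was set beside that of genes starting within 5 Mb of it, to show whether its surroundings on the chromosome moved with it. The median log2FC of the neighbours lay between −0.19 (ITGA2, 21 genes) and 0.33 (GP6, 253 genes) in 11H1 and between −0.13 (GP1BB, 115 genes) and 0.17 (CD226, 11 genes) in 14B5. Around GP9 the 78 neighbours had a median of −0.01 in 11H1 and 0.07 in 14B5, and GP9 itself was below all but 5.13% and 2.56% of them. Around ITGB3 the median was 0.04 in 11H1 and −0.08 in 14B5, with 3.63% and 1.54% of neighbours lower than ITGB3. None of the 11 tested neighbours of CD226 lay below it in either clone. The windows of ITGA2B and ITGB3 overlap on chromosome 17, and these values are a description with no test.

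**Figure D4:**
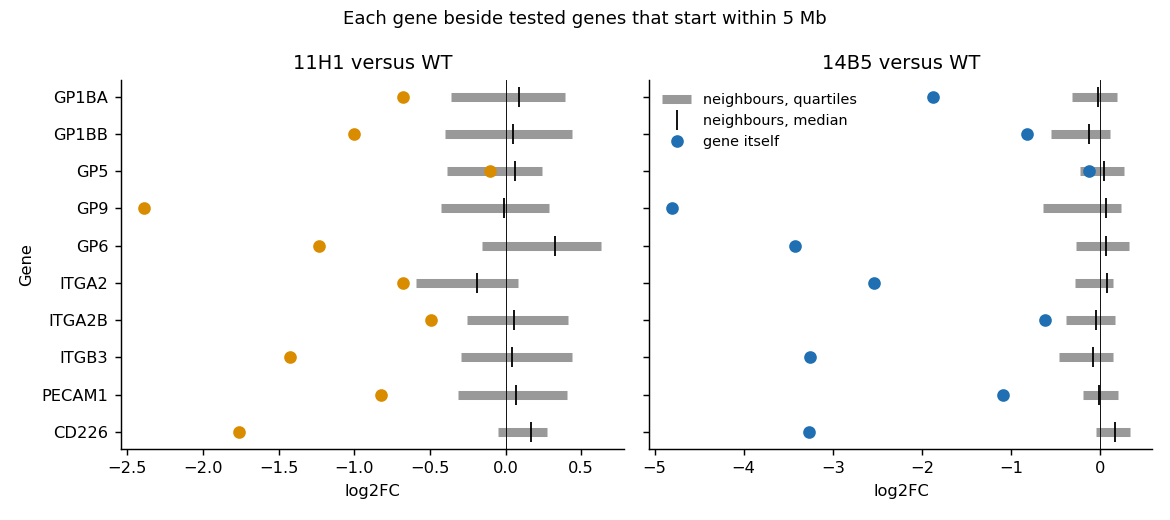
Log2FC against WT (x axis) of each glycoprotein gene (coloured point) beside the tested genes that start within 5 Mb of it (grey bar from the lower to the upper quartile, black tick at the median), in clone 11H1 on the left and clone 14B5 on the right. Neighbour medians stay between −0.19 and 0.33, and GP9, GP6, ITGB3 and CD226 lie well to the left of their neighbours' quartiles in both panels.

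Genes that work with these receptors were read from 4 lists, which were chosen with earlier results of these data known and are given as counts. Of 24 receptor signalling genes, 14 were lower and 4 higher in 11H1 (median log2FC −0.18), and 12 were lower and 2 higher in 14B5 (median −0.19). Of all genes, 64.6% were called in 11H1 (32.8% lower and 31.8% higher) and 53.5% in 14B5 (28.7% lower and 24.9% higher). FYB1, the adaptor ADAP that links receptor signals to integrin activation, stood at 16.9, 18.8 and 21.2 CPM in WT, 8.71, 9.26 and 8.82 CPM in 11H1, and 3.84, 3.68 and 3.26 CPM in 14B5. It fell by 1.08 in 11H1 (edgeR adjusted p = 6.57e-07) and fell by 2.42 in 14B5 (edgeR adjusted p = 5.11e-08) on the log2 scale. APBB1IP, the adaptor RIAM that binds active Rap1 and talin, fell by 1.51 in 11H1 (edgeR adjusted p = 8.03e-10) and fell by 1.91 in 14B5 (edgeR adjusted p = 4.09e-09). PLCG2, the phospholipase Cγ2 that acts after GPVI, fell by 0.73 in 11H1 (edgeR adjusted p = 2.51e-05) and fell by 1.24 in 14B5 (edgeR adjusted p = 9.14e-06). These 3 act between the receptors and integrin activation or calcium release.

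Other platelet receptors were mixed. Of 22 tested among 24, 10 were lower and 5 higher in 11H1 (median log2FC −0.14), and 13 were lower and 5 higher in 14B5 (median −0.49). All genes were called at 64.6% in 11H1 (32.8% lower and 31.8% higher) and 53.5% in 14B5 (28.7% lower and 24.9% higher). TBXA2R, the thromboxane receptor, stood at 4.68, 5.45 and 5.59 CPM in WT, 0.789, 1.28 and 0.882 CPM in 11H1, and 1.56, 1.72 and 1.46 CPM in 14B5. Its 11H1 libraries lay below its 14B5 libraries, the reverse of most of the glycoproteins, with a log2FC of −2.44 (edgeR adjusted p = 1.82e-07) in 11H1 and −1.74 (edgeR adjusted p = 1.7e-06) in 14B5 against WT. ESAM, a junction adhesion protein, fell by 0.70 in 11H1 (edgeR adjusted p = 6.29e-08) and fell by 1.41 in 14B5 (edgeR adjusted p = 8.39e-09). MPIG6B, the inhibitory receptor G6b-B, fell by 0.95 in 11H1 (edgeR adjusted p = 8.46e-09) and fell by 1.05 in 14B5 (edgeR adjusted p = 2.42e-07).

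Of 12 genes for ligands of these receptors, 6 were expressed highly enough to be tested, with 2 lower and 2 higher in 11H1 and 5 lower and 1 higher in 14B5. The share of all genes called was 64.6% in 11H1 (32.8% lower and 31.8% higher) and 53.5% in 14B5 (28.7% lower and 24.9% higher). Both ligands of CD226 were among the lower ones. NECTIN2 stood at 204, 207 and 208 CPM in WT, 95.5, 101 and 93.6 CPM in 11H1, and 94.4, 108 and 110 CPM in 14B5, a log2FC of −1.09 (edgeR adjusted p = 2.69e-09) and −1.003 (edgeR adjusted p = 4.33e-07). PVR fell by 1.06 in 11H1 (edgeR adjusted p = 1.14e-07) and fell by 0.33 in 14B5 (edgeR adjusted p = 0.00124). VTN, which encodes vitronectin, a ligand of β3 integrins, rose from 1.26, 1.30 and 1.19 CPM in WT to 3.78, 3.56 and 3.29 CPM in 11H1 and 9.57, 9.23 and 9.14 CPM in 14B5. Its log2FC was 1.51 (edgeR adjusted p = 1.74e-06) in 11H1 and 2.88 (edgeR adjusted p = 1.27e-08) in 14B5.

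Megakaryocyte transcription factors split evenly, with 4 of 11 lower and 4 higher in 11H1 (median log2FC −0.07), and 3 lower and 4 higher in 14B5 (median 0.03), beside 32.8% lower and 31.8% higher over all genes in 11H1 and 28.7% lower and 24.9% higher in 14B5. FLI1, the ETS factor of megakaryocytes, stood at 177, 177 and 198 CPM in WT, 115, 118 and 120 CPM in 11H1, and 85.5, 86.7 and 86.7 CPM in 14B5, in the same order as most of the glycoproteins. It fell by 0.64 in 11H1 (edgeR adjusted p = 7.1e-07) and fell by 1.11 in 14B5 (edgeR adjusted p = 1.04e-07). MEIS1, a homeobox factor, fell by 0.49 in 11H1 (edgeR adjusted p = 2e-04) and fell by 1.17 in 14B5 (edgeR adjusted p = 1.81e-06). TAL1, which works with the GATA factors, rose by 0.46 in 11H1 (edgeR adjusted p = 2.26e-06) and by 0.34 in 14B5 (edgeR adjusted p = 0.000112). GATA1, looked up after the values were seen because its core was searched upstream, had a log2FC of −0.18 (edgeR adjusted p = 0.0104) in 11H1 and 0.03 (edgeR adjusted p = 0.611) in 14B5.

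**Figure D5:**
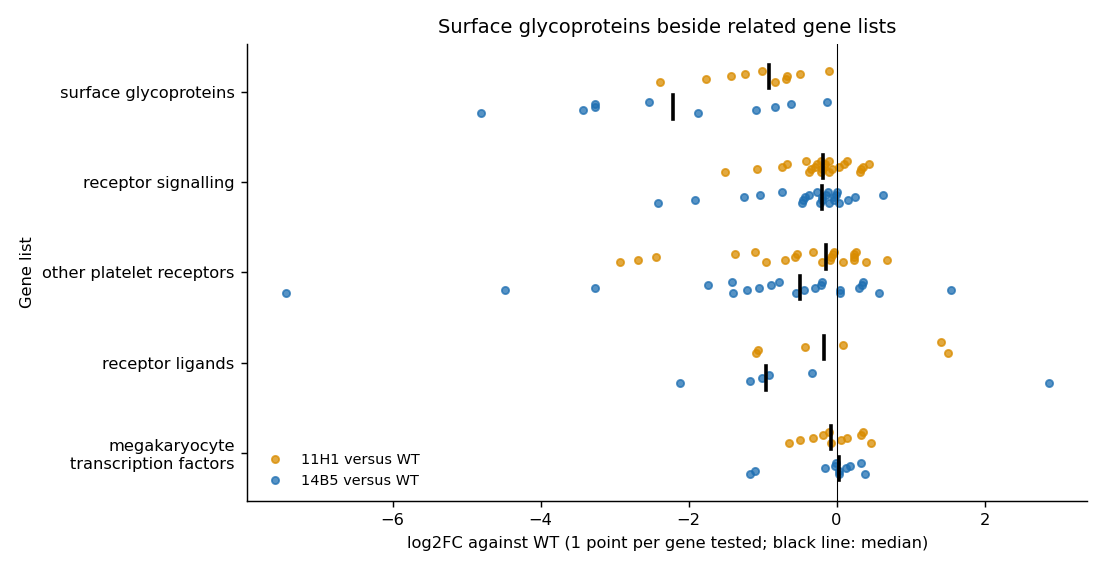
Log2FC against WT (x axis) of every tested gene of the surface glycoproteins and of 4 related lists (rows), with 1 point per gene, clone 11H1 above clone 14B5 in each row and a black line at the median. The glycoproteins have medians of −0.91 and −2.21, the other 4 lists plotted have medians between −0.96 and 0.03, and the marker lists, of which megakaryocyte, monocyte and granulocyte, and endothelial markers have medians of −0.85 or lower, are not plotted.

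The label of the line was set against cell type markers. Of 10 megakaryocyte markers 7 averaged at least 1 CPM in WT, led by NFE2 and GFI1B, whereas the granule genes PF4 (0.510 CPM) and PPBP (0.588 CPM) were near 0 in WT, and in the clones PF4 was at 0. The summed level of the 10 was 679 to 700 CPM in WT, 602 to 635 CPM in 11H1 and 660 to 680 CPM in 14B5, most of it from NFE2 and GFI1B. Of the 9 markers tested, 6 were lower in 11H1, and 7 were lower and 1 higher in 14B5, beside 32.8% and 28.7% of all genes called lower. Their median log2FC was −1.47 in 11H1 and −2.12 in 14B5. RAB27B went from a mean of 40.3 CPM in WT to 14.1 CPM in 11H1 and 5.39 CPM in 14B5, TUBB1 from 17.7 to 6.29 and 7.10 CPM, and SELP from 2.56 to 0.333 and 0.0112 CPM, each called lower in each clone and named after the values were seen. Erythroid markers were far more abundant, at 13097 to 14932 CPM in WT, 12245 to 13292 CPM in 11H1 and 14517 to 16024 CPM in 14B5, most of it the fetal globin gene HBG2. Of the 10 erythroid markers, 4 were higher and 5 lower in 11H1 (median log2FC −0.12), and 3 were higher and 1 lower in 14B5 (median 0.08). The shares over all genes were 31.8% higher and 32.8% lower in 11H1, and 24.9% higher and 28.7% lower in 14B5. SLC4A1, the red cell anion exchanger, had means of 11.3 CPM in WT, 55.3 CPM in 11H1 and 38.2 CPM in 14B5, with a log2FC of 2.30 (edgeR adjusted p = 2.2e-10) and 1.75 (edgeR adjusted p = 2.7e-08), and was named after the values were seen. Of 8 monocyte and granulocyte markers 4 were tested and all 4 were lower in each clone (medians −1.23 and −2.34), beside 32.8% and 28.7% of all genes. Of the 4, CSF1R and MPO averaged 0.465 and 1.29 CPM in WT and 0.0114 and 0.161 CPM in 14B5. LYZ and ITGAM, at 196 and 68.8 CPM in WT, had a log2FC of −0.90 and −1.40 in 11H1 and −0.76 and −1.67 in 14B5. The 8 summed to 263 to 270 CPM in WT, 128 to 136 CPM in 11H1 and 131 to 145 CPM in 14B5. S100A8 was at 0 in every library. B cell markers summed to 40.3 to 47.2 CPM in WT, 31.2 to 31.98 CPM in 11H1 and 23.6 to 30.1 CPM in 14B5. In each clone 3 of 3 tested were lower (medians −0.47 and −0.88), beside the same shares of all genes (32.8% and 28.7%). The part of these markers in the results for the glycoproteins was not tested.

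For the 2 members with the highest level per kb, the genes most alike in pattern were found by Pearson correlation of log2 CPM over the 9 libraries among the 13580 genes that averaged at least 1 CPM. Nearest to ITGA2B were NCF4 (r = 0.996), PFKM (r = 0.995) and PRG2 (r = 0.995). Nearest to PECAM1 were MYO10 (r = 0.998), SMAD1 (r = 0.998) and NOTCH2 (r = 0.997). The 9 points fall into 3 groups that share a founder or a culture, so these values describe the order of the groups and carry no test.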

How the data were processed

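Total RNA of 9 SET2 libraries was sequenced as paired-end mRNA. The study's methods name a stranded mRNA kit and the labels another kit, and whether counting used the strand is not given in the sources used here, nor is the annotation release. Per the submitters' processing notes, reads were processed with STAR 2.7.9a, Picard and RSEM on GRCh38. Expected counts from RSEM were deposited by the authors, 1 per gene and library, with reads matching several genes divided by estimation, and without normalization or filter. The table held 60754 rows, of which 92 were spike-in controls at 0 that were left out, and all 9 columns were used (0 unused).

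Expected counts were rounded and tested with edgeR 4.0.16 in R 4.3.3: TMM scaling, filterByExpr for the 2 groups compared, the quasi-likelihood F test, and p values adjusted by Benjamini-Hochberg over all genes tested, with a threshold of 0.05. The comparisons were 11H1 versus WT, 14B5 versus WT and 11H1 versus 14B5, each 3 libraries against 3, following the series' design, with groups taken from the library titles. SE is the absolute log2FC divided by the square root of F. CPM used TMM-scaled totals over all 9 libraries, and gene coordinates and merged exon lengths came from GENCODE v29, which placed 96.6% of genes. Ratios were compared with exact permutation tests. The scripts were tested on simulated data. Totals of 32347779 to 60272245 counts limit precision for genes with few counts, and counting error treats reads as independent molecules, which unmarked PCR reads are not. All 6 deposited KO libraries were used. The study's figure legends give a smaller number of KO samples for SET2 cells, and the reason is not stated there.

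The 10 members and the lists were chosen with earlier results of these data known. Named list genes were the 3 per list with the largest mean absolute log2FC among those averaging at least 1 CPM and called in the same direction in each clone, and genes outside this rule are stated as looked up later. Other settings tried were median-of-ratios scaling and the Wald test of DESeq2 1.42.0, voom in limma 3.58.1 on values that were not rounded, no filter, a minimum of 10 counts per library, restriction to protein-coding genes, a block for the replicate number, all 3 groups in 1 fit, leaving out each library, and for ratios a pseudocount of 1 CPM. Summing the GP1BB locus was added after seeing the data. Over 9 pairs of equally numbered libraries, deviations from the group means correlated at −0.26 to 0.15, and 1 pair passed 0.1, so the numbers were not taken to pair the samples.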

Additional observations from a re-analysis of the deposited data

Results flagged for a closer look

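For 8 of the 10 glycoprotein genes the distance from WT differed between the DYRK1A KO clones in the direct test of 11H1 against 14B5 (edgeR quasi-likelihood test, Benjamini-Hochberg adjusted over 16352 genes, of which 63.7% were called). In each case 11H1 lay nearer to WT, with every 11H1 library above every 14B5 library. The widest gap was that of GP9, the GPIX chain, with a log2FC of 2.40 (SE 0.200). GP6, the collagen receptor, followed at 2.19 (SE 0.216), and ITGA2, the integrin α2 gene, at 1.86 (SE 0.419), the latter on 4 to 16 counts per library in 14B5. ITGB3, which encodes integrin β3, differed by 1.82 (SE 0.0943), CD226 by 1.497 (SE 0.126) and GP1BA, the chain that binds von Willebrand factor, by 1.18 (SE 0.0587). Of these 8 genes, PECAM1 and ITGA2B differed least, by 0.25 (SE 0.0449) and 0.11 (SE 0.0395). Each clone has 1 founder cell, so a difference between clones cannot be told apart from a difference between founder cells.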

How the results depend on the processing

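In 14 alternative fits per comparison, 7 to 9 members were called in 11H1 versus WT, 8 to 9 in 14B5 versus WT and 7 to 8 in 11H1 versus 14B5. The genes called over the whole table ranged from 9172 to 11489, 7529 to 9743 and 8661 to 11170, each within 1.5 times the reported count. GP1BA, GP6, GP9, ITGB3, PECAM1 and CD226 kept their call and direction in all 14 fits of each comparison. ITGA2 in 11H1 lost its call with the DESeq2 Wald test (adjusted p = 0.0941), with 3 groups in 1 fit (0.0841) and without WT replicate 2 or 3 or 11H1 replicate 1 or 2 (0.0838 to 0.147). GP1BB in 14B5 lost its call with 3 groups in 1 fit (adjusted p = 0.284), with the replicate block (0.0758) and without WT replicate 1 or 2 or 14B5 replicate 1 or 3 (0.0786 to 0.162). In 11H1, GP1BB gained a call with voom (log2FC −2.31), without a filter on low counts (−1.02) and without 11H1 replicate 2 (−2.13), and fell short of one at −0.26 (adjusted p = 0.533) without 11H1 replicate 1. ITGA2B between the clones lost its call without a filter (adjusted p = 0.166), with the replicate block (0.0578) and without 11H1 or 14B5 replicate 1 or 2 (0.0599 to 0.119). The log2FC of GP1BB between the clones turned positive with the DESeq2 Wald test (0.010), without 11H1 replicate 1 (0.56, the highest of −1.27 to 0.56 with a library left out), without 14B5 replicate 2 (0.16) and with its locus summed (0.11), a setting added after seeing the data. That of GP5 turned negative without a filter (−0.0087), without 11H1 replicate 3 (−0.033) and without 14B5 replicate 3 (−0.024), in a range of −0.033 to 0.038 with a library left out. The log2 ratio of GP1BB to GP1BA in 11H1 against WT turned from −1.42 to 0.23 with a pseudocount of 1 CPM and to 0.35 without 11H1 replicate 1, in which GP1BB had 1.14 counts, in a range of −2.61 to 0.35 with a library left out. The causes of these changes were not tested. With at least 10 counts in every library, GP1BB left the comparisons with 11H1 and ITGA2 those with 14B5. The replicate block, whose numbers do not pair the libraries, gave 10710, 7529 and 10099 genes and 8, 8 and 7 members called in the 3 comparisons, and 4 transcription factors in place of 7 in 14B5. Depth limits GP1BB, GP6, GP9 and ITGA2, whose lowest libraries held 1.14, 20, 33 and 4 counts.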
